A study of Mus musculus with 9 samples.

Results

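The genes described here are 33 chaperones, folding enzymes, stress sensors, degradation factors and translocation factors of the endoplasmic reticulum (ER), among 27945 genes with at least 1 count. They were chosen by name from general knowledge of the pathway, with earlier results of these data known. Each of the 33 matched 1 gene of the deposited tables and passed the filter on low counts. By role they comprise 10 lumenal chaperones and cofactors, 2 lectin chaperones, 6 disulfide isomerases, 4 sensors and regulators, 7 factors of ER-associated degradation and 4 factors of translocation and export. The data are polyA RNA-seq of mouse liver, with 3 treated, 3 model and 3 control libraries, 9 in all. The series title names liver damage caused by gefitinib, an inhibitor of the epidermal growth factor receptor kinase. The labels give neither the agent of the treated group nor a dose, time, strain, age or sex, so the groups are named as labelled. The titles of the samples say liver cells while tissue and source say liver, so whole tissue and isolated cells are both possible, and livers below means these samples. Whether gefitinib was also given to the treated mice is not stated, nor whether each library is from its own animal. The p-values therefore rest on library-to-library spread, some of which may be technical.

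Secreted and membrane proteins enter the ER through a channel, the SEC61 translocon, and fold there with the help of chaperones, lectins that bind sugar chains, and enzymes that form disulfide bonds. Proteins that do not fold are pulled back through the membrane, tagged with ubiquitin and destroyed by the proteasome, a route called ER-associated degradation. When unfolded proteins gather, the sensors IRE1, PERK and ATF6 switch on the unfolded protein response, which raises the transcription of many of these same genes. Hepatocytes, the main cells of the liver, secrete most plasma proteins and hold a large ER.

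Depth was 56440871 to 60665156 estimated counts per library, and replicate libraries of a group had rank (Spearman) correlations of 0.972 to 0.976. Cell type markers differed between the groups. The summed CPM (counts scaled to the TMM-adjusted size of each library) of 13 macrophage markers was 1148 to 1247 in treated, 364 to 468 in model and 242 to 368 in control livers. In treated versus control livers 12 of these 13 lay above 0 and 7 were called higher (49.2% and 9.36% of all genes). Gpnmb had 265, 316 and 182 CPM in treated and 1.88, 1.42 and 1.38 CPM in control livers. Timd4 had 4.14, 4.55 and 8.88 CPM in treated and 8.01, 5.29 and 10.4 CPM in control livers. For 10 endothelial markers the sum was 65.1 to 96.2 in treated, 117 to 133 in model and 297 to 356 in control livers, and 9 stellate cell and fibroblast markers summed to 379 to 441, 169 to 214 and 225 to 307 CPM in treated, model and control livers. These 9 did not move together: 3 were called higher and 2 lower in treated versus control livers (9.36% and 8.47% of all genes). Col3a1 had 129, 175 and 136 CPM in treated and 48.7, 25.3 and 21.7 CPM in control livers. Lrat had 4.81, 4.05 and 3.75 CPM in treated and 11.1, 13.0 and 7.80 CPM in control livers. The sum of 9 hepatocyte markers was 71351 to 87213 CPM in treated, 90238 to 92234 in model and 87330 to 100083 in control livers. Alb alone had 46592, 47589 and 55431 CPM in treated livers. In treated versus control livers 8 of the 9 lay below 0 and 3 were called lower (50.8% and 8.47% of all genes). Tat went the other way, with 790, 1642 and 2051 CPM in treated and 605, 543 and 566 CPM in control livers. Skeletal muscle markers, 9 in number, stood at 133 to 170 CPM in the treated libraries and 197 CPM in model library 1, against 0.90 to 1.00 CPM in the other model libraries and 0.70 to 1.38 CPM in the controls. Neutrophil markers summed to 11.2 to 130 CPM in treated, with the 130 in treated library 3, 12.2 to 27.7 in model and 3.36 to 6.11 in control livers. Pancreatic acinar markers, of a tissue rich in ER, summed to at most 1.88 CPM in any library. In bulk RNA, fewer cells of a type and less RNA per cell cannot be told apart, and the part of cell composition in the results below was not tested.

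The levels of the 33 genes spanned a wide range. On the authors' FPKM scale (fragments per kilobase, scaled to library size, which allows genes of different length to be compared), P4hb, the subunit shared by protein disulfide isomerase and prolyl hydroxylase, was highest, at 331 ± 15.8 FPKM in treated, 290 ± 10.4 in model and 262 ± 19.1 in control livers (SD, n = 3 each). Calr, a calcium-binding lectin chaperone of the lumen, came next with a mean of 168 FPKM over all libraries. Herpud1 with 127, Hspa5 with 118, Hsp90b1 with 116 and Pdia3 with 99.1 FPKM followed. Among these 4, the ranges of single libraries overlapped, so their order is not separated by the spread. The lowest levels were those of Derl3, a derlin paralog, with 1.20 FPKM, and Wfs1, an ER membrane glycoprotein that gives its name to Wolfram syndrome, with 1.94 FPKM. Summed over the 6 disulfide isomerases, the level was 578 to 656 FPKM in treated, 477 to 525 in model and 425 to 507 in control livers, which made them the most abundant role in every library.

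**Figure D1:**
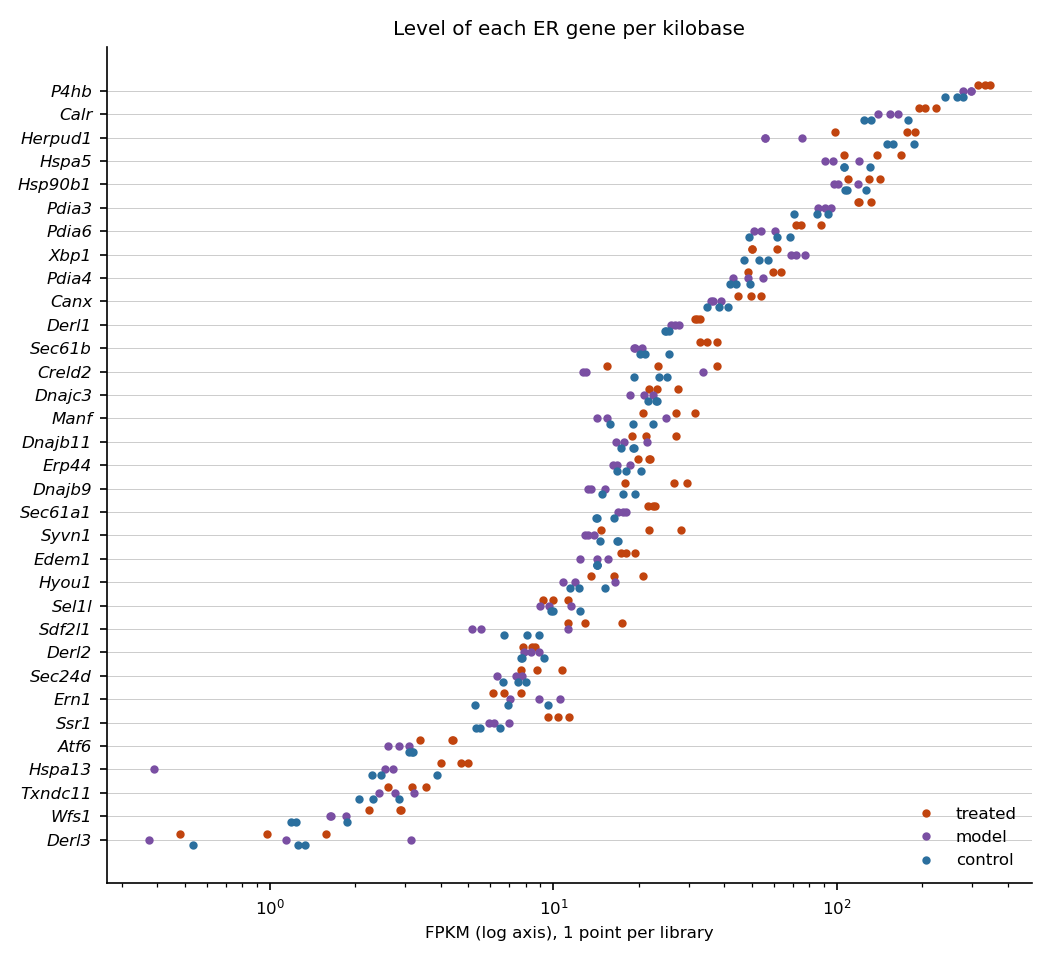
FPKM of the 33 ER genes (log axis) in each of the 3 treated, 3 model and 3 control libraries, 1 point per library, with genes ordered by their mean over all libraries. P4hb, at a mean of 294 FPKM, and Derl3, at 1.20 FPKM, mark the ends of the range, and Herpud1 and Xbp1 show model libraries set apart from the others.

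In the edgeR fit of all 9 libraries, most of the 33 genes passed no test between the groups. Those that did were Herpud1 of ER-associated degradation, the regulators Xbp1 and Wfs1, the translocon genes Sec61a1, Sec61b and Ssr1, and 1 chaperone cofactor, Dnajb9. Other fits called further genes, which are named below. In the edgeR quasi-likelihood test over all genes, at an adjusted p under 0.05, 4 of 33 genes (Dnajb9, Herpud1, Sec61b and Ssr1) were higher and 1 (Xbp1) was lower in treated than in model livers. Over the 18113 genes tested, 5.21% were called higher and 4.44% lower in that comparison, together 9.65%, against 12.1% and 3.03% of the 33. At an unadjusted p under 0.05, 9 of the 33 were higher and 2 lower there, where 2237 and 2131 of the 18113 genes were. In treated compared with control livers, 4 genes (Sec61a1, Sec61b, Ssr1 and Wfs1) were higher and 0 lower, where 9.36% of all genes were called higher and 8.47% lower, together 17.8%. At an unadjusted p under 0.05, 5 of the 33 were higher and 1 lower there, where 2970 and 2751 of the 18113 genes were. DESeq2 also called 0 of the 33 lower. In model compared with control livers, 0 genes were higher and 1 (Herpud1) was lower, where 0.519% of all genes were called higher and 0.596% lower, together 1.12%. At an unadjusted p under 0.05, 1 of the 33 was higher and 1 lower in that comparison, where 1293 and 1233 of the 18113 genes were. DESeq2 called 1 of the 33 higher, Xbp1. For DESeq2 the share over all genes is not given here.

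Median log2 fold changes over the 33 genes were small in each comparison. They were 0.18 in treated versus model, 0.14 in treated versus control and −0.08 in model versus control livers, while the medians of all genes tested lay within 0.01 of 0. The 3 treated libraries lay above the 3 model libraries without overlap in 12 of 33 genes and below them in 3, where 16.2% and 15% of all genes did so. Against control livers, the treated libraries lay above in 8 genes and below in 2, with 19.3% and 18% over all genes. Model libraries lay above the controls in 2 genes and below them in 5, with 9.71% and 10.2% over all genes. The comparisons share libraries in pairs and are not independent of one another.

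**Figure D2:**
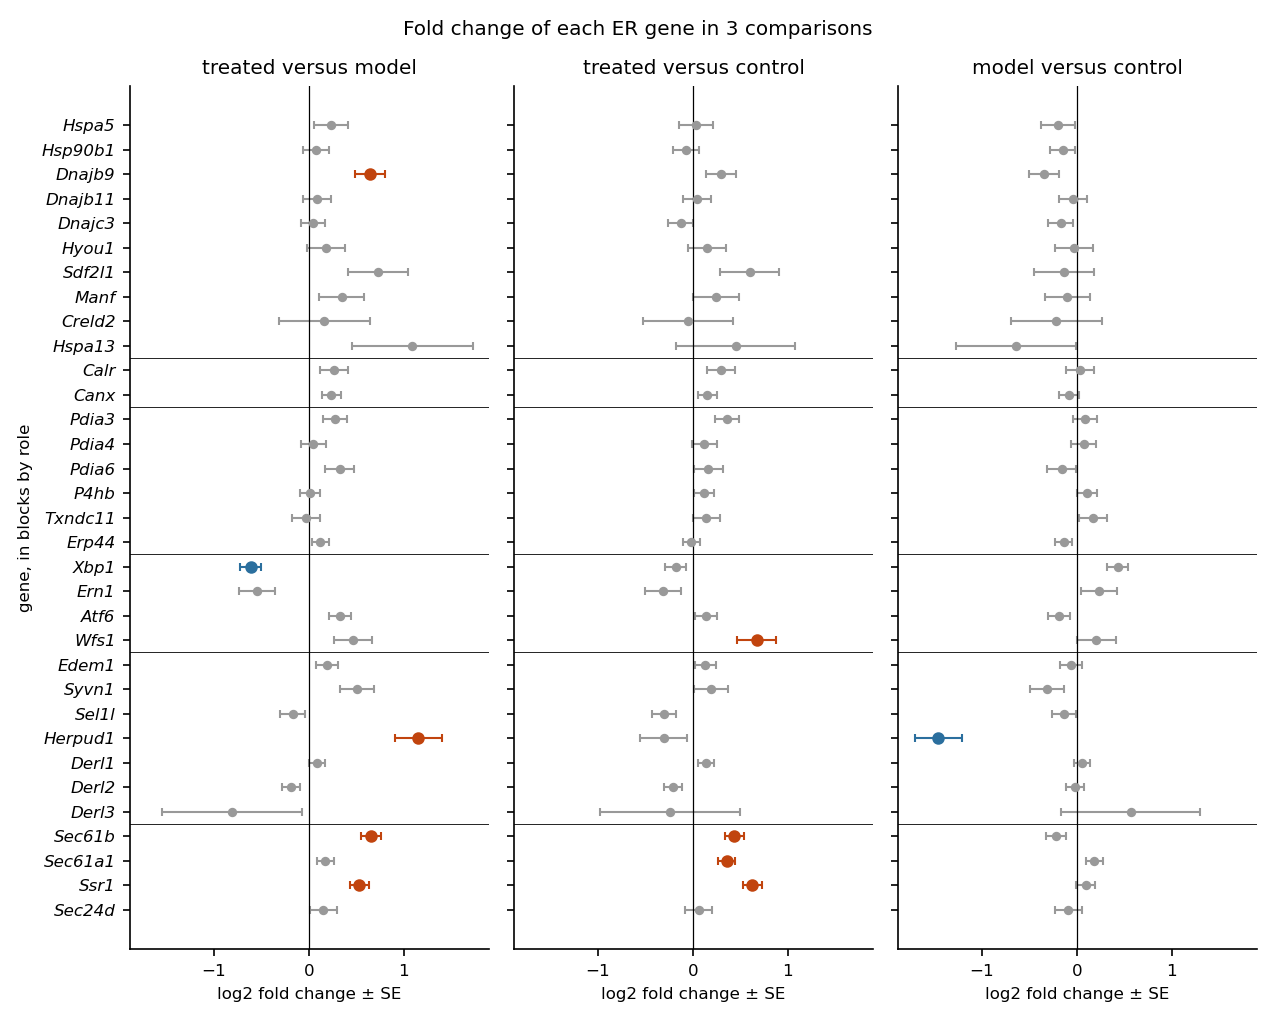
Log2 fold change of each ER gene (point) with its standard error (bar) from the edgeR fit in treated versus model, treated versus control and model versus control livers, in blocks by role. Large orange points were called higher and large blue points lower at an adjusted p under 0.05, and small grey points were not called. Herpud1 lies at 1.15, −0.31 and −1.46 in these 3 comparisons.

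These counts depend on the scale. In the authors' FPKM, scaled to plain library size, the median log2 ratio of all genes with at least 1 FPKM was 0.16 in treated versus model and 0.20 in treated versus control livers, a shift of 0.18 and 0.22 from the TMM scale. On log2(FPKM + 1), limma called 13 of 33 genes higher and 1 lower in treated versus model livers, with 15.4% and 3.80% of all genes called in the same directions. In treated versus control livers it called 10 of 33 higher and 0 lower, with 25.7% and 6.53% of all genes. Changes given below are on the TMM scale.

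Herpud1 showed the largest fitted difference of the set, lower in model than in both other groups. It encodes a membrane protein with a ubiquitin-like domain that joins the HRD1 degradation complex, and its transcript is among those that the unfolded protein response raises. Herpud1 had 229, 459 and 440 CPM in the treated livers, 158, 199 and 151 CPM in the model livers and 408, 546 and 442 CPM in the control livers. Every model library lay below every treated and every control library, and treated library 1 stood between the model libraries and the rest. In model livers Herpud1 averaged 169 ± 25.7 CPM, against 465 ± 71.6 CPM in control livers, a log2 fold change of −1.46 ± 0.25 (SE; edgeR adjusted p = 0.0286), or 2.75-fold lower. In treated livers it averaged 376 ± 128 CPM and was 2.22-fold higher than in model livers, a log2 fold change of 1.15 ± 0.25 (edgeR adjusted p = 0.0189). Between treated and control livers the difference was −0.31 ± 0.24 on the log2 scale (edgeR adjusted p = 0.442). The call in model versus control livers was lost without control library 2, control library 3 or any 1 model library, with log2 fold changes of −1.58 to −1.33 and edgeR adjusted p of at most 0.113 over the fits without 1 library. In treated versus model livers it was lost without model library 1, model library 3, treated library 2 or treated library 3, with 0.98 to 1.41 on the log2 scale and edgeR adjusted p of at most 0.0787.

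The deposited transcript estimates split the Herpud1 level between a pair of forms of 8 exons each on chromosome 8 (GRCm38). The form ENSMUST00000161576, at chr8:94386438-94395377, had 92.6, 90.4 and 91.2 FPKM in treated, 42.0, 38.7 and 40.3 FPKM in model and 82.4, 108 and 77.4 FPKM in control livers. For this form the model libraries stood apart from the others and the treated libraries lay within the range of the controls. The form ENSMUST00000034220, at chr8:94386495-94395358, had 24.4, 138 and 123 FPKM in treated, 24.4, 50.5 and 26 FPKM in model and 98.1, 119 and 114 FPKM in control livers. The low value of treated library 1 thus came from this second form alone. Such estimates for overlapping forms are uncertain, and a predicted antisense gene, Gm15890 (minus strand), also overlaps Herpud1, and whether the counting used strand is not known here.

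The 250 bases before the Herpud1 start of transcription are shown because they hold the letters of an ER stress response element of the second kind (ERSE-II, ATTGG and CCACG with 1 base between them), a sequence known to bind ATF6 and XBP1. They lie at chr8:94386179-94386428 on the plus strand (RefSeq annotation, GRCm38.p6), with the motif in capitals, 52 to 42 bases before the start.
Herpud1: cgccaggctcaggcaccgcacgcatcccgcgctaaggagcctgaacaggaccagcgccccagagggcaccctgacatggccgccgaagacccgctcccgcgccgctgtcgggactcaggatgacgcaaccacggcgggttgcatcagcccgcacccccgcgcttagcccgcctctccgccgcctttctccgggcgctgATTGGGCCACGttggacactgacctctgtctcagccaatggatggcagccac

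The other 6 genes of ER-associated degradation were not called by edgeR with all 9 libraries in any comparison. DESeq2 called Syvn1 higher in treated than in model livers, and limma on log2(FPKM + 1) called Edem1 and Derl1 higher in treated livers than in both other groups. Syvn1, which encodes the ubiquitin ligase HRD1, had 105, 143 and 76.5 CPM in treated, 76.3, 73.0 and 77.9 CPM in model and 95.7, 89.0 and 98.5 CPM in control livers. Its log2 fold change was 0.51 ± 0.18 in treated versus model livers (edgeR adjusted p = 0.103), with treated library 3 at the level of the model libraries. Without treated library 3, Syvn1 passed (edgeR adjusted p = 0.0137). A form that keeps an intron, ENSMUST00000235478, had 9.40, 8.55 and 1.90 FPKM in treated and 0.62, 2.02 and 2.16 FPKM in model livers. The leading coding form, ENSMUST00000138532, had 18.2, 19.9 and 17.0 FPKM in treated and 17.0, 14.5 and 15.2 FPKM in model livers. Its mean share of the Syvn1 FPKM was 64.8% in treated, 83.8% in model and 83.6% in control livers. Such transcript estimates are uncertain. Sel1l, the partner that anchors HRD1, averaged 89.6 ± 9.40 CPM in treated, 101 ± 13.4 CPM in model and 110 ± 11.4 CPM in control livers. Edem1, a lectin that hands misfolded glycoproteins to degradation, averaged 122 ± 9.87, 107 ± 13.7 and 111 ± 3.82 CPM in treated, model and control livers. The derlins Derl1 and Derl2, membrane proteins of the export channel, had log2 fold changes between −0.21 and 0.14 in the 3 comparisons, and their libraries differed little within a group. Derl3 had 1.00, 3.33 and 2.11 CPM in treated, 7.75, 2.63 and 0.89 CPM in model and 2.97, 1.38 and 3.25 CPM in control livers, so single libraries of 1 group differed more than the groups did. In the edgeR fit of all 9 libraries Herpud1 was thus the 1 called gene of this role, and its difference from the other 6 was not itself tested.

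Among the sensors and regulators, Xbp1 fell in treated relative to model livers. It encodes the transcription factor that becomes fully active once IRE1, the product of Ern1, has cut its mRNA. Xbp1 had 198, 170 and 174 CPM in treated, 305, 264 and 259 CPM in model and 216, 191 and 207 CPM in control livers. All 3 model libraries lay above the other 6. The log2 fold change was −0.61 ± 0.11 in treated versus model livers, 1.53-fold lower (edgeR adjusted p = 0.00726). It was called in each of the 17 alternatives tried, with adjusted p of 1.48e-05 to 0.0332. In model versus control livers the value was 0.43 ± 0.11, which missed the threshold in edgeR (adjusted p = 0.0956) and passed it in DESeq2 (adjusted p = 0.00929), and in treated versus control livers it was −0.18 ± 0.11 (edgeR adjusted p = 0.304). Of the 3 groups, model livers thus held the least Herpud1 and the most Xbp1. Clock gene transcripts also differed between these groups, in both directions. Of 12 clock genes, 7 lay above 0 and 5 below 0 in model versus control livers, with 0 called higher and 3 lower (0.519% and 0.596% of all genes). Arntl had 20.2, 12.2 and 19.4 CPM in treated, 7.84, 6.08 and 9.83 CPM in model and 19.2, 23.0 and 26.2 CPM in control livers. Dbp went the other way, with 3.12, 11.9 and 2.09 CPM in treated, 132, 88.5 and 61.6 CPM in model and 26.5, 8.81 and 3.92 CPM in control livers. The sum of all 12, which adds genes that moved in opposite directions, was 229 to 391 CPM in treated, 507 to 659 in model and 358 to 478 in control livers. Plasma cell markers, of a cell type known for high Xbp1, summed to 20.3 to 45.8 CPM in treated, 40.5 to 56.9 in model and 14 to 35.9 in control livers. The part of the clock genes and of plasma cells in the Herpud1 and Xbp1 levels was not tested.

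The 26-base piece that IRE1 removes is not annotated as an intron in any of the 4 Xbp1 transcripts, whose shortest intron has 300 bases, so the counts sum the cut and uncut mRNA and give no measure of IRE1 activity. The leading form, ENSMUST00000063084, made up 75.7% of the Xbp1 transcript FPKM in treated, 84.3% in model and 75.5% in control livers on average.

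Ern1, the gene of the sensor IRE1, had 62.5, 57.0 and 53.1 CPM in treated, 70.2, 82.6 and 99.5 CPM in model and 91.6, 70.9 and 52.1 CPM in control livers. The treated libraries lay below the model libraries, while the controls spanned both groups. The log2 fold change of −0.55 ± 0.19 in treated versus model livers did not pass (edgeR adjusted p = 0.107), though it did in a fit of these 2 groups alone (edgeR adjusted p = 0.0393). Atf6, the gene of the sensor that is cut in the Golgi to release a transcription factor, had 40.4, 42.4 and 33.4 CPM in treated, 32.0, 27.3 and 33.1 CPM in model and 34.2, 36.8 and 34.4 CPM in control livers. Treated libraries were above model libraries for Atf6, by 0.33 ± 0.12 on the log2 scale (edgeR adjusted p = 0.107). The IRE1 and ATF6 sensor transcripts therefore had opposite signs in this comparison, with neither past the threshold in edgeR with all 9 libraries. On log2(FPKM + 1), limma called Atf6 higher there (limma adjusted p = 0.0313).

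Wfs1, whose product restrains ATF6 in mouse and human cells, rose in treated relative to control livers. It had 10.9, 11.4 and 9.03 CPM in treated, 7.58, 6.99 and 8.10 CPM in model and 5.27, 5.85 and 8.55 CPM in control livers. The treated libraries lay above the other 6, although control library 3 came close to the lowest of them. Its log2 fold change was 0.67 ± 0.20 in treated versus control livers, 1.59-fold higher (edgeR adjusted p = 0.0422). This call was lost in 9 of 17 alternatives, with adjusted p of up to 0.130.

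Transcripts of 3 translocon subunits rose in treated livers. Sec61b, the small beta subunit of the SEC61 channel, had 47.8, 46.2 and 44.7 CPM in treated, 31.9, 27.8 and 28.5 CPM in model and 38.1, 32.1 and 32.2 CPM in control livers. All treated libraries were above all others, and the spread within the treated group was 0.10 on the log2 scale. Sec61b was 1.57-fold higher in treated than in model livers, a log2 fold change of 0.65 ± 0.10 (edgeR adjusted p = 0.00353), and 1.35-fold higher than in control livers, with 0.44 ± 0.10 (edgeR adjusted p = 0.0145). The call against model livers held in all 17 alternatives. The call against control livers was lost without control library 2, control library 3 or treated library 1, where the edgeR adjusted p rose to at most 0.0555.

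Ssr1, the alpha subunit of the translocon-associated protein complex, which helps some signal sequences to enter the channel, had 118, 113 and 106 CPM in treated, 75.3, 73.2 and 84.2 CPM in model and 79.0, 71.9 and 67.2 CPM in control livers. Here too the treated libraries stood apart, while model and control libraries overlapped. The log2 fold change was 0.53 ± 0.10 in treated versus model livers, 1.45-fold higher (edgeR adjusted p = 0.00849). Relative to control livers it was 0.63 ± 0.10, 1.54-fold higher (edgeR adjusted p = 0.00187). Both calls held in all 17 alternatives.

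Sec61a1, the gene of the alpha subunit that forms the pore of the channel, had 150, 160 and 155 CPM in treated, 138, 135 and 140 CPM in model and 129, 119 and 116 CPM in control livers. The 3 groups did not overlap, with treated highest and control lowest. Sec61a1 rose 1.28-fold in treated relative to control livers, a log2 fold change of 0.36 ± 0.09 (edgeR adjusted p = 0.0190), and this did not pass in 5 of 17 alternatives, where adjusted p reached 0.0653. The 2 smaller steps did not pass in edgeR: 0.17 ± 0.09 in treated versus model livers (edgeR adjusted p = 0.271) and 0.18 ± 0.09 in model versus control livers (edgeR adjusted p = 0.398). On log2(FPKM + 1), limma called Sec61a1 higher in treated than in model livers. Sec24d, a coat subunit that selects cargo for export from the ER, averaged 59.1 ± 10.2, 53.2 ± 6.63 and 56.5 ± 6.27 CPM in treated, model and control livers, with overlapping libraries. The treated livers in which Sec61b, Ssr1 and Sec61a1 were higher were also those with the highest macrophage marker sums. Not every macrophage marker was higher there, and the part of these cells was not tested.

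**Figure D3:**
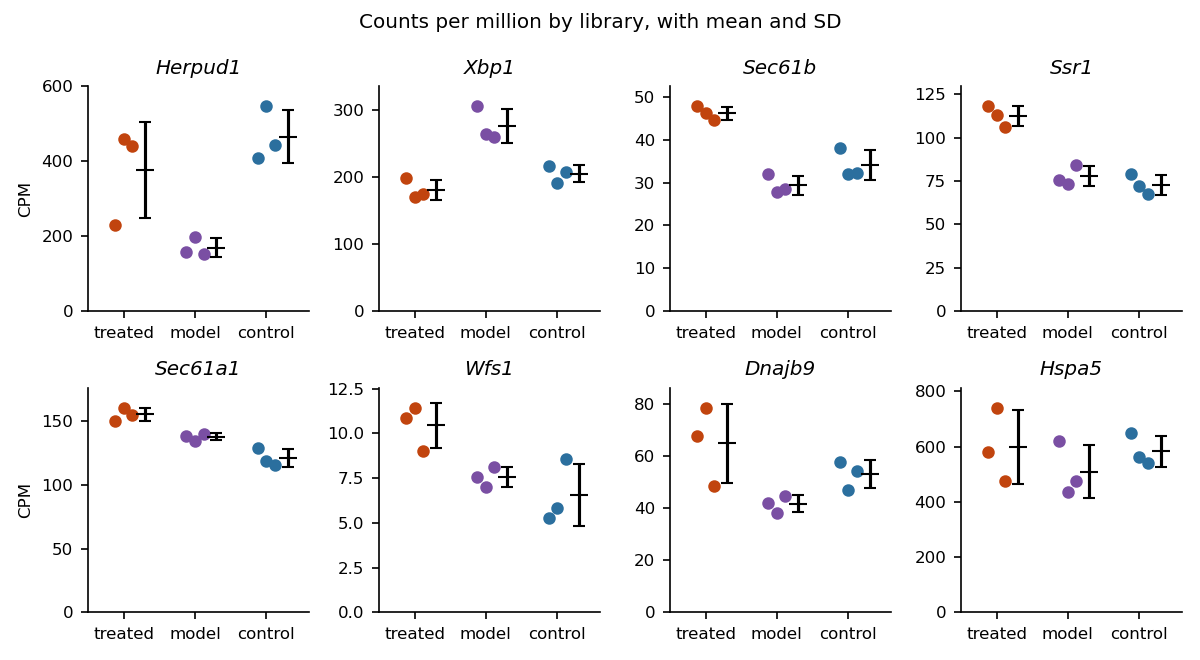
CPM of 8 ER genes in each library (points), with the mean (horizontal mark) and SD (bar) of each group, for treated, model and control livers, n = 3 each, on axes that start at 0. Herpud1 is low and Xbp1 high in the 3 model libraries, Sec61b, Ssr1 and Sec61a1 are high in the 3 treated libraries, and the Hspa5 libraries overlap.

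The lumenal chaperones changed little on average. Hspa5, the gene of BiP, the ER form of the HSP70 family and the usual marker of the unfolded protein response, had 581, 739 and 476 CPM in treated, 618, 435 and 475 CPM in model and 647, 561 and 542 CPM in control livers. The 3 groups overlapped, and treated library 2 was the highest of all. Log2 fold changes of Hspa5 were 0.23 ± 0.18 in treated versus model, 0.04 ± 0.18 in treated versus control and −0.20 ± 0.18 in model versus control livers (edgeR adjusted p = 0.481, 0.924 and 0.710). Hsp90b1, the gene of the ER form of HSP90 known as GRP94, averaged 529 ± 62.0, 501 ± 72.8 and 554 ± 37.8 CPM in treated, model and control livers, and its libraries overlapped as well.

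Dnajb9 was the member of this role that passed the test. It encodes a J-domain cofactor of BiP, also called ERdj4, that takes part in degradation and holds IRE1 inactive in hamster cells. Dnajb9 had 67.8, 78.5 and 48.6 CPM in treated, 42.1, 38.2 and 44.7 CPM in model and 57.7, 47.1 and 54.2 CPM in control livers. Model libraries were the lowest of the 9, and treated library 3 exceeded the highest of them by a small margin. The log2 fold change was 0.64 ± 0.16 in treated versus model livers, 1.56-fold higher (edgeR adjusted p = 0.0291). This call was lost in 6 of 17 alternatives, among them the fits without any 1 model library, without treated library 1 and without treated library 2 (adjusted p of up to 0.0965).

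Hyou1, an HSP70-related chaperone and exchange factor of BiP, had log2 fold changes of −0.03 to 0.18 in the 3 comparisons. The J-domain cofactors Dnajb11 and Dnajc3 stayed between −0.17 and 0.09. Sdf2l1, a partner of BiP and Dnajb11, had 12.4, 20.2 and 15.3 CPM in treated, 15.2, 6.49 and 7.14 CPM in model and 11.5, 11.2 and 8.96 CPM in control livers. Model library 1 stood at about the level of the treated libraries, and the other model libraries stood below all others. The value of 0.73 ± 0.32 on the log2 scale in treated versus model livers did not pass (edgeR adjusted p = 0.189), and without model library 1 it was 1.23 (edgeR adjusted p = 0.0158). Creld2, a secreted ER stress protein, also had model library 1 far above the other model libraries, with 31.8, 53.7 and 22.5 CPM in treated, 56.1, 20.3 and 20.0 CPM in model and 40.0, 33 and 38.8 CPM in control livers. Manf, a small protein kept in the ER by its binding to BiP, had 95.3, 116 and 77.7 CPM in treated, 107, 61.9 and 58.3 CPM in model and 92.5, 69.8 and 81.0 CPM in control livers.

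Hspa13, an HSP70-like protein of microsomes, had 32.3, 35.6 and 29.2 CPM in treated, 22.6, 19.8 and 3.11 CPM in model and 30.9, 19.6 and 20.4 CPM in control livers. The low value belongs to model library 3, where the leading transcript ENSMUST00000046283 is listed at 0 against 3.69 to 8.05 FPKM in the other 8 libraries. A 0 of this kind can be a failed estimate, so no group mean is given for Hspa13. Its log2 fold change of 1.09 ± 0.64 in treated versus model livers did not pass (edgeR adjusted p = 0.360).

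All 10 lumenal chaperones and cofactors had a fitted log2 fold change above 0 in treated versus model livers, with a median of 0.21, and below 0 in model versus control livers, with a median of −0.16. Over all genes tested, 50.5% lay above 0 in the first of these comparisons and 50.1% lay below 0 in the second. The comparisons share the model libraries, and in edgeR with all 9 libraries only Dnajb9 of the 10 was called, while limma on log2(FPKM + 1) also called Sdf2l1 in treated versus model livers. In treated versus control livers 7 of 10 lay above 0, with a median of 0.10, and on the log2(FPKM + 1) scale all 10 did, but without treated library 2 only 4 of 10 did, with a median of −0.07. Leaving out model library 2 or model library 3 brought the count below 0 in model versus control livers to 5 of 10. Leaving out treated library 2 brought the count above 0 in treated versus model livers to 6 of 10, with a median of 0.03.

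No lectin chaperone or disulfide isomerase was called by edgeR in any of the 3 comparisons. On log2(FPKM + 1), limma called Canx, Pdia3 and Pdia6 higher in treated than in model livers. It called Calr, Canx, P4hb and Pdia3 higher in treated than in control livers. Calr averaged 618 ± 55.4, 514 ± 61 and 502 ± 86.9 CPM in treated, model and control livers. Canx, the membrane-bound lectin chaperone, averaged 240 ± 14.5, 204 ± 8.57 and 216 ± 16.6 CPM, and its treated libraries lay above the model libraries. Pdia3, the isomerase that works with both lectins, averaged 402 ± 30.4 CPM in treated, 332 ± 29.8 CPM in model and 314 ± 40.6 CPM in control livers. The treated libraries of Pdia3 lay above all others, with log2 fold changes of 0.27 ± 0.13 against model and 0.36 ± 0.13 against control livers (edgeR adjusted p = 0.213 and 0.0752). DESeq2 called Pdia3 higher in treated than in control livers. Pdia6, an isomerase that acts on IRE1 and PERK as well as on clients, was 0.32 ± 0.15 above model livers in treated livers (edgeR adjusted p = 0.229). For Pdia4, P4hb, Erp44, which retains client proteins that cycle to the Golgi, and Txndc11 the values ran from −0.14 to 0.17 over the 3 comparisons.

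Single libraries stood out for chaperones and isomerases. Treated library 2 was the highest of its group in 27 of 33 genes, including all 10 lumenal chaperones and all 6 isomerases, where 33.1% of all genes were highest in that library. Model library 1 was the highest model library in 18 of 33 genes, 9 of 10 chaperones among them, with 33% over all genes. Control library 1 was highest in 21 of 33 genes and 8 of 10 chaperones, with 33.2% over all genes. Relative to each gene's mean over the 9 libraries, the median log2 level of the lumenal chaperones was 0.05, 0.46 and −0.12 in treated, 0.19, −0.37 and −0.22 in model and 0.16, −0.03 and 0.01 in control livers. Treated library 2 and model library 1 stood highest for this role, and model libraries 2 and 3 lowest. Model library 1 is also the model library with skeletal muscle markers, and the part of that in its chaperone levels was not tested. Treated library 2 had muscle markers of 133 CPM, the lowest of the treated libraries, and macrophage markers of 1247 CPM, the same as treated library 3. Its sums of clock genes (391 CPM), stellate cell and fibroblast markers (441 CPM) and bile duct cell markers (59.9 CPM) were the highest of the treated libraries. Its sums of plasma cell (20.3 CPM) and neutrophil markers (11.2 CPM) were the lowest. The part of any of these in its chaperone levels was not tested.

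Not every role followed these libraries. For translocation and export the same median was 0.27, 0.35 and 0.24 in treated, −0.08, −0.26 and 0.00 in model and −0.05, −0.18 and −0.20 in control livers, so that the treated libraries stood together and above the rest. Over the 33 genes the median log2 range within a group was 0.34 in treated, 0.34 in model and 0.26 in control livers, below the medians of 0.50, 0.49 and 0.51 for all genes tested.

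**Figure D4:**
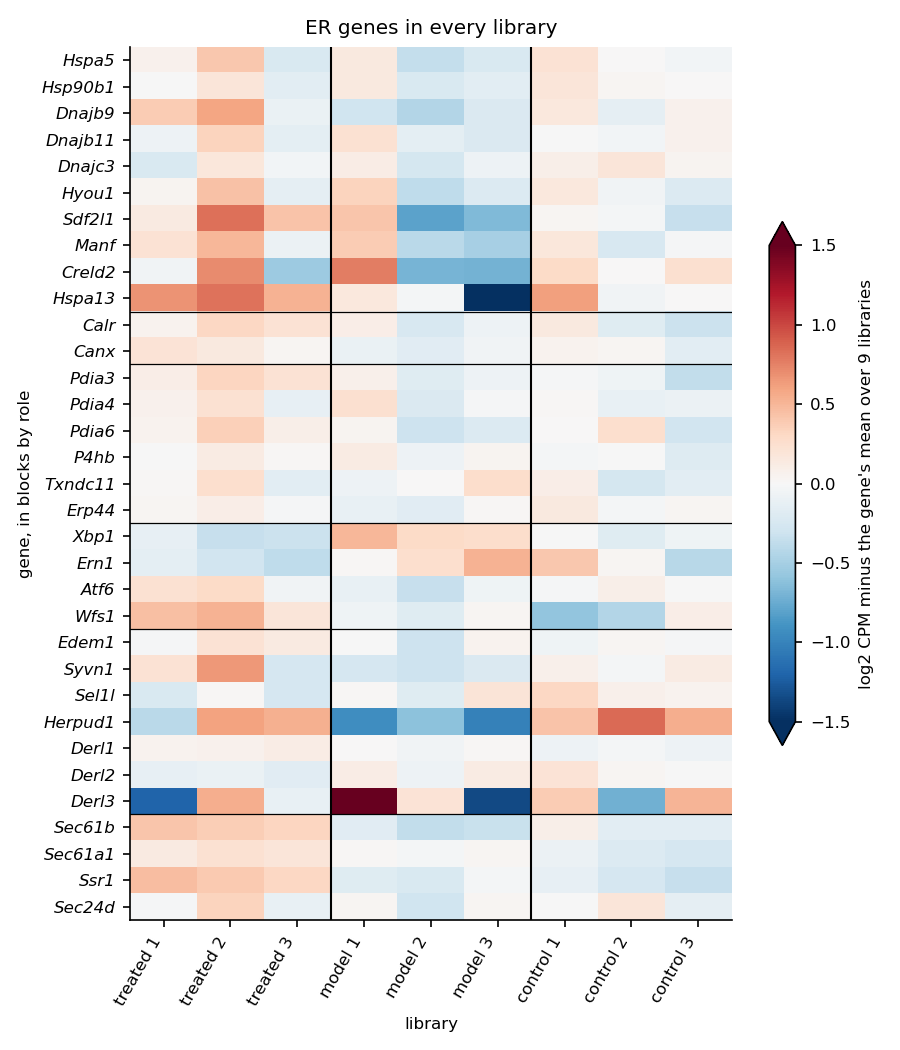
Log2 CPM of each ER gene minus its mean over the 9 libraries (colour, red above and blue below the mean, saturated beyond 1.5), with libraries in columns and genes in blocks by role. The chaperone block is red in treated library 2 and model library 1, the Herpud1 row is blue in the 3 model libraries, and the Sec61b, Sec61a1 and Ssr1 rows are red in the 3 treated libraries.

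Several of the folding and degradation genes shared an element in front of their start of transcription. RefSeq windows of 300 bases, from 250 before to 50 after the start (GRCm38.p6), were matched for 27 of the 33 genes and searched on both strands. Sec61a1, Atf6, Manf, Derl1, Hspa13 and Hyou1 had no window and are named only. The ER stress response element (ERSE, CCAAT and CCACG with 9 bases between them), a known binding sequence of NF-Y with ATF6 or XBP1, was found in 9 of 27 genes, or 33.3%. Of all 32851 RefSeq windows, 0.119% held it, and 37 of 27025 genes (0.137%) had a match, these 9 included. The 33 genes were chosen from knowledge of the same pathway that the element belongs to. Their high share is therefore a description and no test. The 10 matches lay between 212 and 26 bases before the start. They are shown with 10 bases on each side, on the strand of the gene, because they are the sequence that these folding and degradation genes share, with the element in capitals (CCAAT first, or CGTGG first where the match is on the opposite strand). The lines give Hspa5 at chr2:34772015-34772053 (plus strand), Hsp90b1 at chr10:86705628-86705666 and at chr10:86705523-86705561 (minus), Calr at chr8:84847065-84847103 (minus), Canx at chr11:50325790-50325828 (minus) and Pdia6 at chr12:17266481-17266519 (plus). They go on with Dnajc3 at chr14:118937817-118937855 (plus), Creld2 at chr15:88819510-88819548 (plus), Syvn1 at chr19:6046522-6046560 (plus) and Derl3 at chr10:75893232-75893270 (plus).
Hspa5: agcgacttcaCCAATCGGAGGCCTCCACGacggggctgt
Hsp90b1: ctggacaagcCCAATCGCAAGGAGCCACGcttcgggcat
Hsp90b1: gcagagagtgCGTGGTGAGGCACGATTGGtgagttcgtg
Calr: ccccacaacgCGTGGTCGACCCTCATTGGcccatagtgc
Canx: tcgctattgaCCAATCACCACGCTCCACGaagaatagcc
Pdia6: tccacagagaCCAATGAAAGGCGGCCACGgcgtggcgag
Dnajc3: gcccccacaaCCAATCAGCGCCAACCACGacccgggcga
Creld2: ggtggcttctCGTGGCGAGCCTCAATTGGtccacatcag
Syvn1: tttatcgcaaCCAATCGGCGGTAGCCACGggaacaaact
Derl3: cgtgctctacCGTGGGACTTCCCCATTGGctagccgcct

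ERSE-II was found in Herpud1 and Dnajb11 and in 0.0365% of all windows. The XBP1-type element UPRE (TGACGTGG) was found in Sec24d and Txndc11 and in 0.676% of all windows, and the ATF4 and CHOP site TGATGNAAT in 0 of 27 genes and 0.965% of all windows. No match overlapped another. The windows of Sec61b, Ssr1, Xbp1, Dnajb9 and Wfs1 held none of these letters. In treated versus model livers the genes with ERSE or ERSE-II had a median log2 fold change of 0.23 (11 genes), against 0.14 in the 16 genes without. There 1 of the 11 was called higher and 0 lower, and 3 of the 16 were called higher and 1 lower. Over all genes 5.21% were called higher and 4.44% lower. The lowest of the 11 was Derl3, the gene of the lowest level, at −0.81 ± 0.73. The others ran from 0.04 (Dnajc3) to 1.15 (Herpud1). In model versus control livers the medians were −0.16 and 0.03, with 1 of 11 genes called lower, Herpud1, and 0 of 16 (0.596% of all genes). In treated versus control livers they were 0.04 and 0.13, with 0 of 11 and 3 of 16 genes called higher (9.36% of all genes) and 0 lower. Treated library 2 was the highest treated library for 10 of the 11 genes with a match and for 12 of the 16 without.

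**Figure D5:**
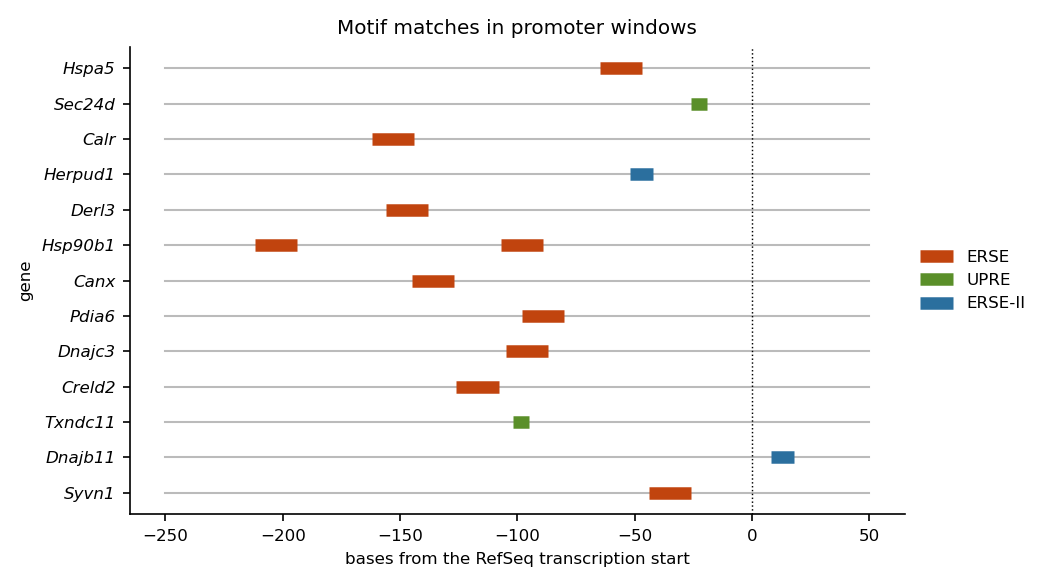
Position of ERSE, ERSE-II and UPRE matches (coloured bars) in the RefSeq promoter windows of the 13 ER genes that hold one, in bases from the transcription start, with the window drawn as a grey line. The ERSE matches lie between 212 and 26 bases before the start, and the ERSE-II match of Dnajb11 lies after it.

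Around the 33 genes, 114 other genes of the same pathways were tested in 6 lists. These lists were chosen with earlier results of these data known, and the translocon genes below were named after their calls were seen. In treated versus model livers 10 (8.77%) were called higher and 1 (0.877%) lower, with 5.21% and 4.44% over all genes tested. In treated versus control livers 16 (14%) were higher and 3 (2.63%) lower, with 9.36% and 8.47% over all genes, and in model versus control livers 1 (0.877%) was higher and 0 lower, with 0.519% and 0.596%. Of 21 translocon and glycosylation genes, 5 (23.8%) were called higher and 0 lower in treated versus control livers: Srprb, Ssr3, Spcs3, Ostc and Stt3a. Srprb, the receptor subunit that docks ribosomes at the ER, was 1.51-fold higher there, at 29.6 ± 1.57 against 19.5 ± 1.05 CPM (edgeR adjusted p = 0.00296). Tmed9, a cargo receptor between ER and Golgi, was 1.49-fold higher (edgeR adjusted p = 0.00434). Golgb1, Sar1b and Ero1lb fell by 0.58, 0.61 and 0.51 on the log2 scale (edgeR adjusted p = 0.00413, 0.00494 and 0.0430), the first a Golgi tether, the second the GTPase that starts coat assembly at ER exit sites and the third an oxidase of disulfide isomerases.

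Of 10 genes downstream of PERK, a sensor that slows translation, 2 were called higher in treated versus model livers (Atf3 and Ddit3), 2 in treated versus control livers and 1 in model versus control livers, where 5.21%, 9.36% and 0.519% of all genes were. Atf3, a transcription factor of the stress response, had 31.6, 32.3 and 24.0 CPM in treated, 2.45, 2.43 and 2.71 CPM in model and 1.36, 0.67 and 1.32 CPM in control livers. It was called in all 3 comparisons, 11.6-fold higher in treated than in model livers, 26.1-fold higher in treated than in control livers and 2.26-fold higher in model than in control livers (edgeR adjusted p = 5.59e-05, 5.16e-06 and 0.0491). The call in model versus control livers was lost in each of the 9 fits without 1 library. Ddit3, the gene of CHOP, was 1.93-fold higher in treated than in model livers (17.7 ± 3.45 against 9.16 ± 0.14 CPM, edgeR adjusted p = 0.00390). Control livers had 12.1, 12.9 and 13.2 CPM of Ddit3, above the model libraries, and treated library 3 had 13.7 CPM. Ddit3 was not called in treated versus control livers. Eif2ak3, the gene of PERK itself, which was listed with the sensors, was 2.69-fold higher in treated than in model livers (30.5 ± 6.04 against 11.4 ± 4.23 CPM, edgeR adjusted p = 0.0112). Pdia5, listed with the folding enzymes and known to act on ATF6 in human cells, was the 1 other pathway gene called lower in treated versus model livers, by 0.45 on the log2 scale (edgeR adjusted p = 0.0388). In the same comparison Hspa5 and Hsp90b1, the main lumenal chaperones, had log2 fold changes of 0.23 and 0.08 and did not pass.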

How the data were processed

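The submitters' processing notes name HISAT2 and no version. Which quantifier and annotation were used, and whether counting was stranded, is not given in the sources used here. Per the file headers, the authors deposited estimated counts and FPKM per gene and per transcript. The deposited estimated counts are whole numbers, so no rounding was needed, and they are estimates rather than a tally of reads. Overlapping genes, 10 of the 33 described, are therefore uncertain. Spans of 29 of the 33 genes equal those of GENCODE M21, an annotation of GRCm38.

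Gene counts were fitted in edgeR 4.0.16 (R 4.3.3; robust quasi-likelihood F tests, TMM, filterByExpr with minimum count 10 and total 15) over all 9 libraries. Adjusted p are Benjamini-Hochberg values over 18113 genes, and a gene is called under 0.05. Levels are CPM on TMM-scaled library sizes, and the deposited FPKM serve where genes are compared. The script was tested on simulated counts. Alternatives were other scalings (RLE, upper quartile), no filter, DESeq2 1.42.0, limma 3.58.1 (voom, and on log2(FPKM + 1) for genes with at least 1 FPKM), fits of only the groups compared, a replicate block and each library left out in turn. Values were given library by library for called genes and for Hspa5, Xbp1, Ern1, Atf6 and Herpud1, and, chosen after their values were seen, for Syvn1, Derl3, Sdf2l1, Creld2, Manf and Hspa13. From the other pathway lists, the 3 called genes with the smallest p per direction were named, and the translocon genes after seeing their calls. The genes, lists and tests were chosen with earlier results of these data known. Protein sequences were not analysed here.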

Additional observations from a re-analysis of the deposited data

How the results depend on the processing

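Calls of the 33 genes varied mainly with the scale and with single libraries. On log2(FPKM + 1), which is not TMM-scaled, 13 genes were higher in treated versus model and 10 in treated versus control livers (4 and 4 in edgeR), and the medians were 0.35 and 0.33. Other pathway genes there numbered 27 higher and 0 lower in treated versus model, 49 higher in treated versus control and 0 higher in model versus control livers. On that scale 15.4% of all genes were called higher and 3.80% lower in treated versus model livers. In treated versus control livers 25.7% of all genes were called higher. Xbp1 then turned to 0.041 in treated versus control livers (adjusted p = 0.806). DESeq2 called 1 of the 33 higher and 1 other pathway gene lower in model versus control livers, and 16 and 26 other genes higher in treated versus model and treated versus control livers. Fits of only the groups compared called 2 of the 33 lower in treated versus model livers. Upper-quartile scaling called 5 other genes lower in treated versus control livers. With upper-quartile scaling, voom or 2 groups only, 0 other genes were higher in model versus control livers. The cause of these changes was not tested. For the other fits of this section the share over all genes is not given here, so their counts have no background beside them.

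Replicate numbers did not pair the libraries: deviations of same-numbered libraries correlated at −0.0756 to 0.0716. With a replicate block, 2 of the 33 were higher in treated versus control livers, and 4 other genes were higher and 0 lower in treated versus model livers and 0 higher in model versus control livers.

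Without 1 library, 2 to 4 genes were higher and 1 to 2 lower in treated versus model livers (medians 0.09 to 0.28; other genes 4 to 11 higher, 0 to 1 lower). In treated versus control livers 1 to 4 were higher and 0 lower (medians 0.03 to 0.20; others 8 to 15 and 2 to 4). In model versus control livers 0 were higher and 0 to 1 lower (medians −0.14 to 0.04; others 0 and 0). Hspa5 in treated versus control livers ran from −0.14 (without treated library 2) to 0.18 (without treated library 3), and was −0.01 without control library 3. Searching only the 150 bases nearest the end of the window left ERSE in 3 genes and UPRE in 1. Derl3 had the lowest level of the 33, at 0.89 to 7.75 CPM.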
